A study of Homo sapiens with 6 samples.

Results

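The transcripts of 10 genes that encode scaffold and matrix proteins of nuclear speckles were followed after knockdown of ALYREF: SON, SRRM1, SRRM2, BCLAF1, THRAP3, PNN, ACIN1, RNPS1, NKTR and ZC3H18. They were chosen by gene symbol, and all 10 had a row among the 11679 genes of the authors' deposited tables. Polyadenylated RNA came from 786-O, an established human clear cell renal cell carcinoma line, transfected with a non-targeting siRNA (NTC), ALYREF siRNA5 or ALYREF siRNA8. Each of these 3 groups had 2 libraries from cells harvested 48 h after transfection, all in RPMI medium with 10% FBS. The tables used here hold 1 mean normalized count per gene over the libraries, and a log2 fold change against NTC with its standard error (SE) for each siRNA, but no value per library. Changes are given below as log2 fold change ± SE. They are relative to the other RNA of a bulk library, in which fewer cells of a type and less RNA per cell cannot be told apart. Knockdown was transient, in 1 cell line, and no source used here says whether duplicates came from separate cultures. The p-values therefore reflect the spread of these libraries alone, which may be technical.

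Nuclear speckles are membraneless bodies between chromatin domains that concentrate splicing factors and polyadenylated RNA. SON and SRRM2 are large disordered proteins that form the core of the body, while SRRM1, PNN, ACIN1 and RNPS1 bind spliced RNA near exon junctions and assist splicing. BCLAF1 and THRAP3 are related proteins rich in arginine and serine that act in splicing and RNA export, NKTR carries a cyclophilin domain beside such a region, and ZC3H18 joins the cap-binding complex to nuclear RNA decay. ALYREF, the gene knocked down, is an adaptor for mRNA export that itself gathers in speckles.

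ALYREF fell to 5.67% of its NTC level with siRNA5 (log2 -4.14 ± 0.096) and to 7.83% with siRNA8 (log2 -3.67 ± 0.085) according to the authors' deposited tables. The direction of the fold changes was read from this fall, so the fall is no separate check of the labels. All 9 renal tubule and carcinoma line markers examined had a row, among them PAX8 with a mean normalized count of 2354. Of 3 immune markers only CD68 had a row, with a mean of 202, and of 2 endothelial markers 0 had one. The median gene had a mean of 459, against a range of 1067 (NKTR) to 7994 (SRRM2) for the speckle genes.

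The upstream sequence of the 4 genes that were higher with both siRNAs is shown first, with that of ZC3H18, the single gene of the 10 that was lower with either. Each run is the 250 bases before the transcript start of the first promoter window that RefSeq lists for the gene (build GRCh38.p14, read 5′ to 3′ on the gene's strand). The authors' reads were placed on hg19, so these positions belong to the reference only. Capitals mark TGACG on either strand, where it reads CGTCA, the core recognised by CREB and ATF factors. The windows lie at chr6:136289847-136290096 (minus strand) for BCLAF1, chr1:36224193-36224442 (plus) for THRAP3, chr3:42600436-42600685 (plus) for NKTR, chr16:2752388-2752637 (plus) for SRRM2 and chr16:88570153-88570402 (plus) for ZC3H18.
BCLAF1: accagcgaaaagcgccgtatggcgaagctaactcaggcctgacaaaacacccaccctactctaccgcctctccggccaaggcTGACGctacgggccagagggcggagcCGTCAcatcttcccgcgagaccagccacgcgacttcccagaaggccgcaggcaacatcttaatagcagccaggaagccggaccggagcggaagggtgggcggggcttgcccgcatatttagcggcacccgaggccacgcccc
THRAP3: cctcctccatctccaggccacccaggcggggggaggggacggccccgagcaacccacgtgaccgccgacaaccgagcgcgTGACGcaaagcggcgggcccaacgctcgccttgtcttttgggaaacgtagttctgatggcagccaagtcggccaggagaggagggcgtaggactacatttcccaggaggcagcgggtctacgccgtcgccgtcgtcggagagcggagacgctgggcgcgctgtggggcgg
NKTR: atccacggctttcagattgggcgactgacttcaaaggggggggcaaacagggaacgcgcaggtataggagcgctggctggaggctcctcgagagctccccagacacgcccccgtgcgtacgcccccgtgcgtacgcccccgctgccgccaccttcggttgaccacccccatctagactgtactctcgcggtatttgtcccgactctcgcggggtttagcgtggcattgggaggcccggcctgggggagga
SRRM2: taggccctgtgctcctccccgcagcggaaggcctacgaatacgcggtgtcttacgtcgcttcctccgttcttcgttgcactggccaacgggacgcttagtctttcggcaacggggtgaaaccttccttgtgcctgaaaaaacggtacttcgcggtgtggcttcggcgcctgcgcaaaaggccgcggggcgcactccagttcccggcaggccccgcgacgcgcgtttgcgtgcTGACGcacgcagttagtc
ZC3H18: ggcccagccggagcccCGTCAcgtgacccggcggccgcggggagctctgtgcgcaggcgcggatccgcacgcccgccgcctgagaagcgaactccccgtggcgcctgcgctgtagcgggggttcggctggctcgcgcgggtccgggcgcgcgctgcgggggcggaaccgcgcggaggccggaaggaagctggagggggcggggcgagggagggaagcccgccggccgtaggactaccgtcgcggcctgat

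TGACG or CGTCA was present in the windows of 8 of the 10 genes, all but ACIN1 and NKTR, against 30.9% of the 9427 measured genes with a RefSeq window (80.7% of those in the tables). BCLAF1 held 2 copies, while SRRM2, THRAP3 and ZC3H18 held 1 each, so genes that were higher and the gene that was lower shared it. Other short motifs were searched on both strands in the same windows. The GC box GGGCGG was in 7 of 10 windows (68.7% of all), the CCAAT box in 5 (35.5%), the ETS motif CCGGAAG in 3 (1603 of the 9427 windows), the E-box CACGTG in 2 (9.17%) and ACTACA, part of the ZNF143 motif, in 1 (8.59%). ACTACA stood in THRAP3, and the E-box in THRAP3 and ZC3H18, where in ZC3H18 it overlaps CGTCA. The windows held a median of 24.5 CpG dinucleotides, against 21 for all genes, and a median GC content of 65.0%, against 65.2%. These matches describe the letters of the windows and are no measure of binding.

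Most of the speckle genes were higher after ALYREF knockdown with siRNA5, and fewer of them were with siRNA8. With siRNA5, 7 of 10 were higher, 1 was lower and 2 were not called at an adjusted p under 0.05 (authors' DESeq2 Wald test, Benjamini-Hochberg over all rows of the deposited table), where 24.4% of all genes were higher and 22% lower. With siRNA8, 5 were higher, 0 were lower and 5 were not called according to the authors' deposited table, where 21% of all genes were higher and 20.5% lower. The speckle genes had means of 1067 to 7994 and SEs of 0.039 to 0.080, against medians of 459 and 0.107 over all genes. Genes of like level were not set beside them, and the part of precision in these counts was not tested. At an unadjusted Wald p under 0.05, 6 were higher and 1, PNN, was lower with siRNA8. With Holm adjustment only BCLAF1 and THRAP3 of the 5 siRNA8 calls remained, and 7 of the 8 siRNA5 calls did, without SRRM1. Of all 11679 genes, 1934 were called with siRNA8 and 2268 with siRNA5 by that adjustment. The median log2 change of the 10 genes was 0.37 with siRNA5 and 0.16 with siRNA8, beside medians of 0.01 for all genes with each siRNA. In absolute size the siRNA8 median of 0.16 was below the 0.23 of all genes, whereas the siRNA5 median of 0.40 was above the 0.25 of all genes. BCLAF1, THRAP3, SRRM2 and NKTR were higher in both comparisons, which share the 2 NTC libraries. The 4 genes called with 1 siRNA in the upward direction were SON, SRRM1 and PNN with siRNA5 and ACIN1 with siRNA8, and RNPS1 was called with neither.

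**Figure D1:**
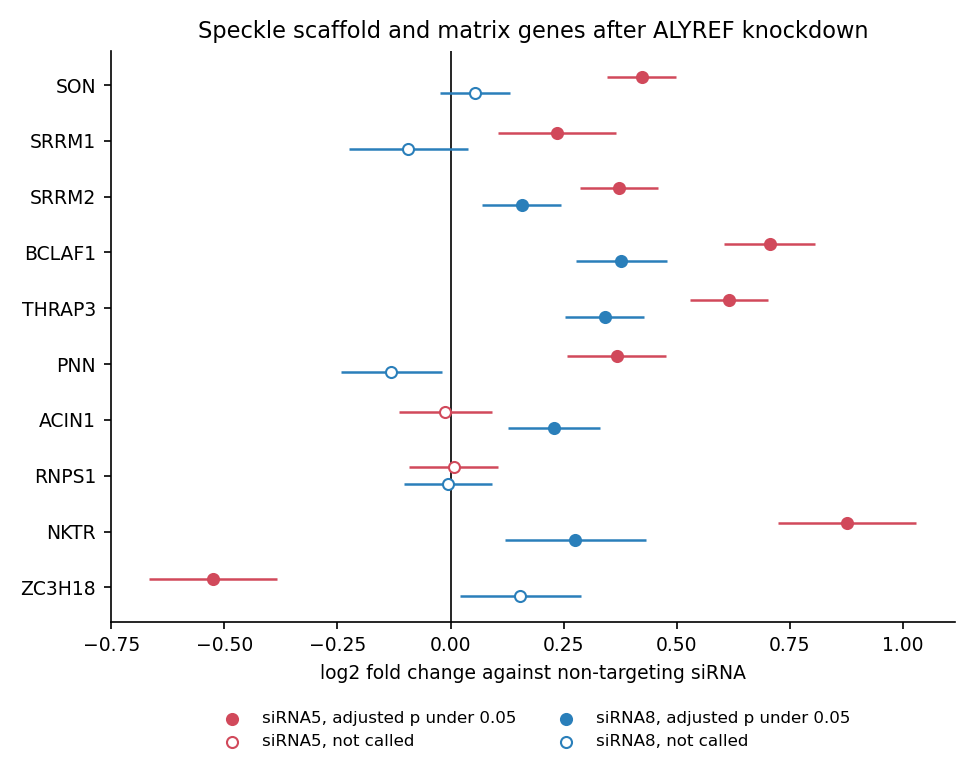
Log2 fold change of each speckle gene against the non-targeting siRNA (x axis) for siRNA5 (red) and siRNA8 (blue), as points with 95% intervals from the authors' standard errors. Filled points have an adjusted p under 0.05: the red points of 7 genes lie above 0 and that of ZC3H18 at -0.53, while the blue points stay between -0.13 and 0.38.

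SON and SRRM2, the scaffolds that form the speckle core, both rose with siRNA5. Levels per group were rebuilt from the deposited mean and both fold changes, since no library has a value of its own here. The rebuilt level of SON was 6297 normalized counts in NTC, 8438 with siRNA5 and 6535 with siRNA8, so the siRNA8 group lay close to NTC and the siRNA5 group above both. SON rose by 0.42 ± 0.039 (adjusted p = 1.16e-25) with siRNA5, a 1.34-fold change, according to the authors' deposited table. With siRNA8 its log2 change was 0.05 ± 0.039 (adjusted p = 0.280; 95% interval -0.02 to 0.13) according to the authors' deposited table. SRRM2 stood at 7034 in NTC, 9106 with siRNA5 and 7842 with siRNA8, with siRNA8 between the other groups. It rose by 0.37 ± 0.044 (adjusted p = 6.94e-16) with siRNA5 and by 0.16 ± 0.044 (adjusted p = 0.00158) with siRNA8, 1.29-fold and 1.11-fold, according to the authors' deposited tables. SRRM1, the partner of SRRM2 in a complex that promotes splicing, had levels of 1281, 1508 and 1200 in NTC, siRNA5 and siRNA8. It rose by 0.24 ± 0.066 (adjusted p = 0.00131) with siRNA5, and its log2 change was -0.09 ± 0.067 (adjusted p = 0.270) with siRNA8 according to the authors' deposited tables.

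BCLAF1 and THRAP3, the related pair, rose with both siRNAs. BCLAF1 stood at 3760 normalized counts in NTC, 6132 with siRNA5 and 4885 with siRNA8, and THRAP3 at 2807, 4298 and 3555. In both genes NTC was lowest, siRNA8 intermediate and siRNA5 highest. BCLAF1 rose 1.63-fold with siRNA5 (log2 0.71 ± 0.051, adjusted p = 7.82e-41) and 1.30-fold with siRNA8 (log2 0.38 ± 0.052, adjusted p = 4.59e-12) according to the authors' deposited tables. THRAP3 rose 1.53-fold with siRNA5 (log2 0.61 ± 0.044, adjusted p = 4.48e-42) and 1.27-fold with siRNA8 (log2 0.34 ± 0.044, adjusted p = 3.18e-13) according to the authors' deposited tables. With siRNA5, 4.86% of all genes had a larger log2 change than BCLAF1 and 6.78% a larger one than THRAP3. With siRNA8 these shares were 12.9% and 15.1%. Both genes have pseudogene copies in GENCODE 29 (BCLAF1P1 and BCLAF1P2, and THRAP3P1), as do SRRM1 (SRRM1P2 and SRRM1P3) and RNPS1 (RNPS1P1), and no source used here says how reads were split among such copies, so their values are uncertain to that extent.

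PNN, ACIN1 and RNPS1 meet in a pair of small complexes at exon junctions: ACIN1 with RNPS1 and SAP18 form ASAP, and PNN takes the place of ACIN1 in PSAP. The 3 genes did not share a direction. PNN, known as pinin, stood at 1899 in NTC, 2450 with siRNA5 and 1735 with siRNA8, so NTC lay between the knockdown groups. It rose by 0.37 ± 0.056 (adjusted p = 5.75e-10) with siRNA5, and its log2 change was -0.13 ± 0.057 (adjusted p = 0.0527) with siRNA8 according to the authors' deposited tables. The siRNA8 value of PNN lies at the threshold, with an adjusted p of 0.0411 when fold changes were recentred on the median gene and 0.0468 when genes with a mean under 100 were left out (0.0411 to 1 over all alternatives).

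ACIN1, which encodes acinus, had levels of 2322, 2304 and 2722 in NTC, siRNA5 and siRNA8, with siRNA8 standing above the other groups. Its log2 change was -0.01 ± 0.053 (adjusted p = 0.885) with siRNA5, and it rose by 0.23 ± 0.052 (adjusted p = 5.66e-05) with siRNA8 according to the authors' deposited tables. ACIN1 shares 640 exonic bases, 7.03% of its exonic length, with C14orf119 on the opposite strand in GENCODE 29. C14orf119 rose by 0.35 ± 0.097 with siRNA5 and by 0.54 ± 0.095 with siRNA8 according to the authors' deposited tables, and its part in the ACIN1 value was not tested. RNPS1, the RNA-binding subunit common to both complexes, was almost level across the groups, at 2510, 2523 and 2501. Its log2 changes were 0.01 ± 0.050 (adjusted p = 0.920) and -0.01 ± 0.050 (adjusted p = 0.948) according to the authors' deposited tables. The 95% interval for RNPS1 ran from -0.09 to 0.11 with siRNA5 and from -0.10 to 0.09 with siRNA8.

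NKTR, a large nuclear cyclophilin, had the greatest rise of the 10 genes with siRNA5. Its level was 791 in NTC, 1453 with siRNA5 and 958 with siRNA8, and its NTC level was the lowest of the 10. It rose 1.84-fold with siRNA5 (log2 0.88 ± 0.078, adjusted p = 1.05e-27) and 1.21-fold with siRNA8 (log2 0.28 ± 0.080, adjusted p = 0.00208) according to the authors' deposited tables. Only 2.77% of all genes had a larger log2 change than NKTR with siRNA5, but 19.7% had one with siRNA8. SEC22C, on the opposite strand, shares 121 exonic bases with NKTR, or 0.697% of the NKTR exonic length. AC006059.1, an antisense gene without a row among the measured genes, shares 230 bases with NKTR, or 1.33%. SEC22C fell with both siRNAs, with log2 changes of -0.24 ± 0.085 and -1.12 ± 0.092, according to the authors' deposited tables, the opposite direction to NKTR.

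ZC3H18, the link between the cap-binding complex and RNA decay, was lower with siRNA5. It stood at 1439 in NTC, 999.9 with siRNA5 and 1601 with siRNA8, so that the knockdown groups lay on opposite sides of NTC. It fell by 0.53 ± 0.072 (adjusted p = 4.68e-12) with siRNA5, a 1.44-fold decrease, according to the authors' deposited table. With siRNA8 its log2 change was 0.15 ± 0.068 (adjusted p = 0.0561) according to the authors' deposited table, and the adjusted p was 0.0498 without genes whose mean is under 100 (0.0498 to 1 over all alternatives).

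**Figure D2:**
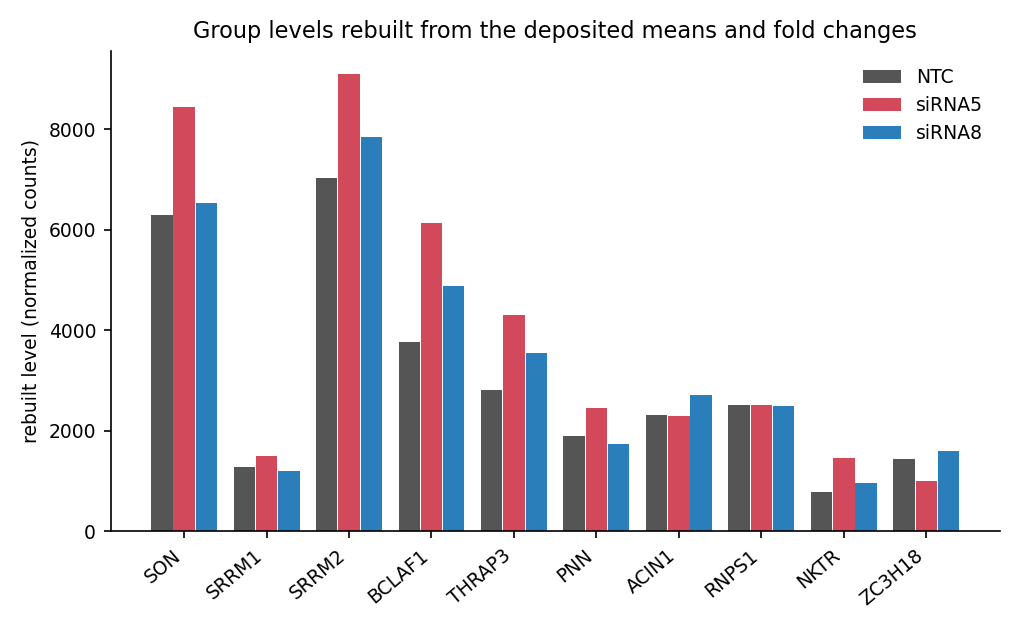
Rebuilt level of each speckle gene in normalized counts (bars from 0) for NTC, siRNA5 and siRNA8; bars are group estimates from the deposited mean and fold changes and carry no error of their own. SON and SRRM2 reach 8438 and 9106 with siRNA5, and NKTR starts at 791 in NTC.

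The effects of the siRNAs were set against each other by the difference of their log2 changes, with p-values adjusted over all genes. Of the 10 genes, 7 were higher with siRNA5 than with siRNA8, 2 were lower and 1 was not called, where 17.2% of all genes were higher and 14.8% lower. The SE used here leaves out that the comparisons share the NTC libraries and is therefore an upper bound. ZC3H18 had the widest gap, -0.68 ± 0.099 (adjusted p = 1.68e-10), followed by NKTR at 0.60 ± 0.11 (adjusted p = 7.90e-07) and PNN at 0.50 ± 0.080 (adjusted p = 8.48e-09). SON differed by 0.37 ± 0.055 (adjusted p = 5.71e-10), SRRM1 by 0.33 ± 0.094 (adjusted p = 0.00252), BCLAF1 by 0.33 ± 0.073 (adjusted p = 5.58e-05) and THRAP3 by 0.27 ± 0.063 (adjusted p = 9.56e-05). SRRM2 differed by 0.22 ± 0.063 (adjusted p = 0.00288) and ACIN1 by -0.24 ± 0.074 (adjusted p = 0.00541). For RNPS1 the difference was 0.01 ± 0.071 (adjusted p = 0.920; 95% interval -0.13 to 0.15). Thus BCLAF1, THRAP3, SRRM2 and NKTR rose with both siRNAs but by more with siRNA5. ALYREF itself was lower with siRNA5 than with siRNA8, the difference being -0.47 ± 0.13 (adjusted p = 0.00152), and the part of this gap in the differences of the speckle genes was not tested.

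**Figure D3:**
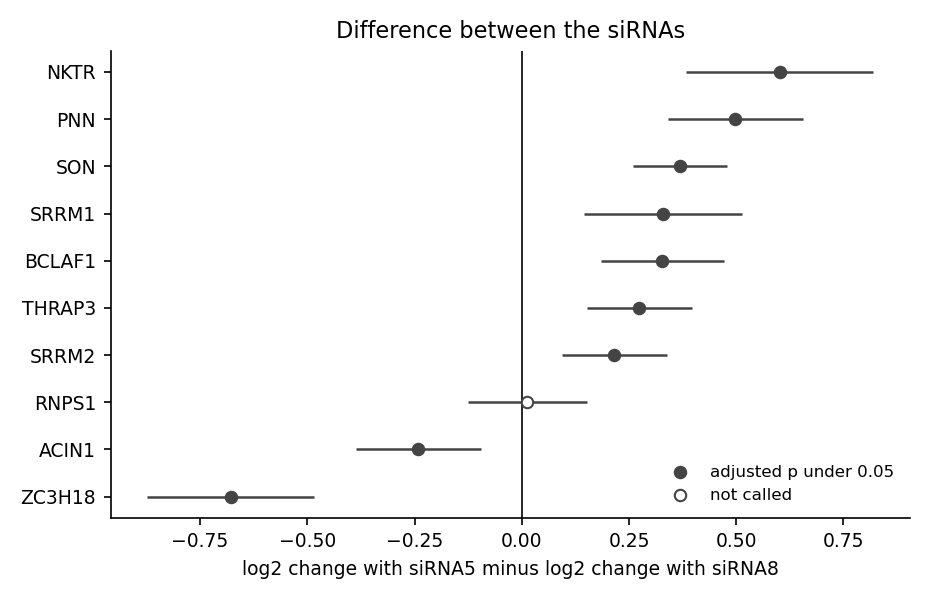
Log2 change with siRNA5 minus log2 change with siRNA8 for each speckle gene (x axis), with 95% intervals from the upper-bound standard error. Filled points have an adjusted p under 0.05; 7 lie above 0, ACIN1 and ZC3H18 lie below it, and the open point of RNPS1 sits at 0.01.

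Per kilobase of exonic sequence, the levels of the speckle genes in NTC were ordered as follows. The lengths are the union of exons in GENCODE 29, from 4201 bases for PNN to 17356 for NKTR. THRAP3 was highest at 593 normalized counts per kb (95% interval 567 to 619), followed by SRRM2 at 530 (508 to 553). SON at 478 (460 to 497) and PNN at 452 (428 to 478) came next, with overlapping intervals. BCLAF1 followed at 394, RNPS1 at 292 and ACIN1 at 255. ZC3H18 at 166 (156 to 178) and SRRM1 at 157 (147 to 167) also overlapped, and NKTR was lowest at 45.6 (42.2 to 49.3). With siRNA5, BCLAF1 at 643 (613 to 675) overlapped SON at 641 (617 to 665), as it did with siRNA8 at 512 (488 to 538) against 496 (478 to 515). SRRM2 at 686 (658 to 716) overlapped both with siRNA5, and PNN at 583 (553 to 615) overlapped BCLAF1. SRRM1 at 185 (173 to 197) stood above ZC3H18 at 116 (108 to 124) with siRNA5. ACIN1 at 299 (284 to 314) overlapped RNPS1 at 291 (278 to 306) with siRNA8. The intervals rest on the spread between libraries that the deposited standard errors imply, 2.70% (SON) to 5.34% (NKTR) per library, and take no account of which transcripts were present.

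The partner proteins of the speckle genes were counted in the same way, by the authors' DESeq2 calls, from 5 lists. Where a list below has 0 genes in 1 direction with an siRNA, the count at an unadjusted p under 0.05 was 0 as well. Of the 6 ASAP, PSAP and exon junction partners, 3 rose and 0 fell with siRNA5, and 1 rose and 0 fell with siRNA8, with medians of 0.12 and 0.05. For this and the next lists the shares over all genes were 24.4% higher and 22% lower with siRNA5, and 21% and 20.5% with siRNA8, and 1 of 6 is near that share. SAP18, the subunit shared by ASAP and PSAP, rose by 0.14 ± 0.058 (adjusted p = 0.0408) with siRNA5, and its log2 change was 0.05 ± 0.058 with siRNA8 according to the authors' deposited tables; it was picked for its place in both complexes after its values were seen. MAGOHB, an exon junction core protein, had the largest rise of that list with each siRNA, 0.46 ± 0.084 and 0.33 ± 0.084 according to the authors' deposited tables.

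Of the 10 cap-binding and decay partners of ZC3H18, 3 rose and 2 fell with siRNA5, and 3 rose and 0 fell with siRNA8, with medians of 0.05 and 0.06. The siRNA5 counts lie near the shares of all genes, 24.4% and 22%. SRRT, also called ARS2, which binds the cap-binding complex, rose 0.84 ± 0.053 with siRNA5 and 0.31 ± 0.054 with siRNA8 according to the authors' deposited tables, while ZC3H18 fell with siRNA5. NCBP1, the large cap-binding subunit, fell by 0.25 ± 0.062 with siRNA5, and its log2 change was -0.04 ± 0.061 with siRNA8 according to the authors' deposited tables. SRRT therefore moved in the opposite direction to ZC3H18 with siRNA5, and NCBP1 in the same one. Of the other called genes of the list, PHAX and ZFC3H1 rose with siRNA5, by 0.23 ± 0.074 and 0.25 ± 0.078. RBM7 rose by 0.29 ± 0.093 with siRNA8, and its log2 change was 0.14 ± 0.095 with siRNA5, not called, according to the authors' deposited tables. NCBP2, the small cap-binding subunit, had log2 changes of -0.21 ± 0.058 with siRNA5 and 0.20 ± 0.056 with siRNA8, both called, according to the authors' deposited tables.

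Of 7 measured partners and relatives of BCLAF1 and THRAP3, 2 rose and 2 fell with siRNA5, and 0 rose and 3 fell with siRNA8, with medians of 0.03 and -0.04, where 24.4% and 22% of all genes with siRNA5 and 21% and 20.5% with siRNA8 were higher and lower. BRCA1, a DNA repair protein that joins BCLAF1 in a splicing complex after DNA damage, fell with both siRNAs, with log2 changes of -0.55 ± 0.083 and -0.42 ± 0.082, according to the authors' deposited tables. SNW1, a splicing and transcription cofactor, rose by 0.22 ± 0.063 with siRNA5, and its log2 change was -0.04 ± 0.064 with siRNA8 according to the authors' deposited tables. U2AF2, the large subunit of a factor that recognises the end of introns, and SF3B1, a core spliceosome subunit, were the other called falls with siRNA8, with log2 changes of -0.23 ± 0.048 and -0.28 ± 0.050 according to the authors' deposited table. With siRNA5 the log2 change was -0.22 ± 0.049 for U2AF2, also called, and 0.03 ± 0.049 for SF3B1, not called, according to the authors' deposited table. Both are named because the count is small, after their values were seen.

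Of the 9 other nuclear cyclophilins, 3 rose and 1 fell with siRNA5, and 5 rose and 0 fell with siRNA8, with medians of 0.14 and 0.30, where 24.4% of all genes with siRNA5 and 21% with siRNA8 were higher. PPIG, which like NKTR joins a cyclophilin domain to an arginine and serine rich tail, rose by 0.36 ± 0.073 and 0.30 ± 0.073 according to the authors' deposited tables. PPIL3 rose by 0.32 ± 0.10 and 0.62 ± 0.098 according to the authors' deposited tables. PPWD1 fell by 0.44 ± 0.12 with siRNA5, and its log2 change was -0.11 ± 0.12 with siRNA8 according to the authors' deposited tables. Of the 9, 0 were called for a difference between the siRNAs by the normal test with Benjamini-Hochberg adjustment, and 3 were lower with siRNA5 at an unadjusted p under 0.05.

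Of 22 other measured RS-rich and speckle proteins, 5 rose and 5 fell with siRNA5, and 5 rose and 4 fell with siRNA8, with medians of 0.05 and 0.00. RBM39, a splicing factor related to U2AF, rose by 0.38 ± 0.049 and 0.16 ± 0.049, and MFAP1, a spliceosome protein, rose by 0.32 ± 0.073 and 0.30 ± 0.072 according to the authors' deposited tables. RSRP1, a small protein rich in arginine and serine, fell with both siRNAs, with log2 changes of -0.51 ± 0.10 and -0.73 ± 0.10, according to the authors' deposited tables. With siRNA5 the shares that were higher were 7 of 10 for the scaffold and matrix genes and 5 of 22 for these proteins, the second close to the 24.4% of all genes.

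**Figure D4:**
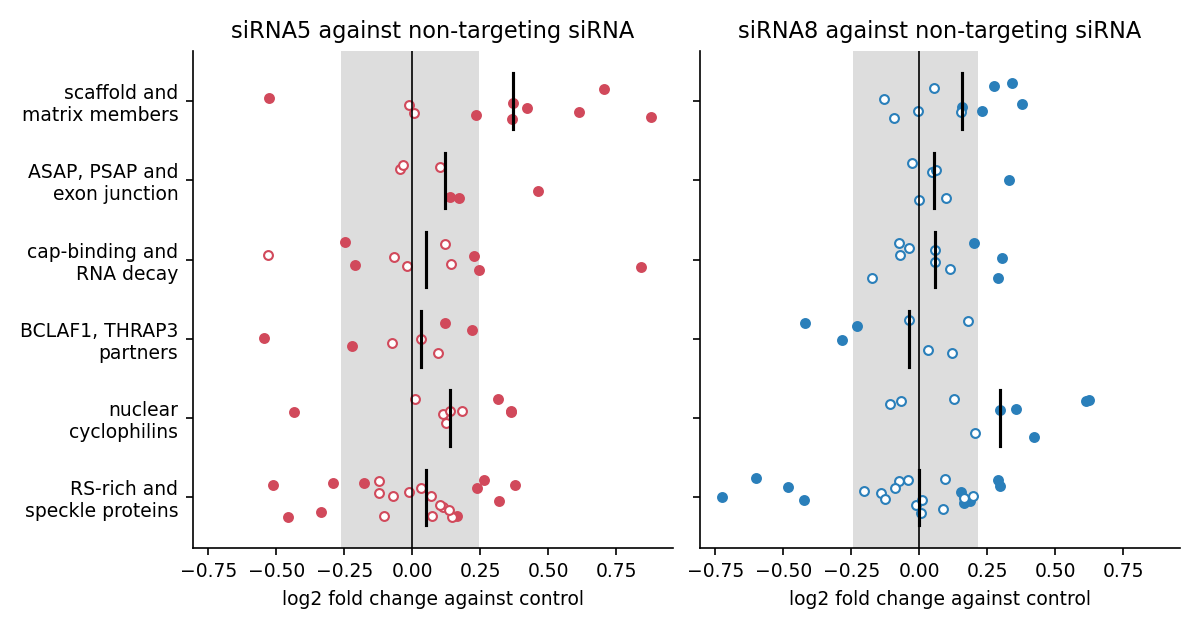
Log2 fold change against NTC (x axis) of each gene of the scaffold and matrix group and of 5 partner lists, for siRNA5 (left) and siRNA8 (right); filled points have an adjusted p under 0.05, black bars are medians, vertical scatter is arbitrary and grey bands span the middle 50% of single genes, as a scale for the points. The bar of the scaffold and matrix genes stands at 0.37 with siRNA5 and at 0.16 with siRNA8.

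The transcript annotation, which the choice of the 10 genes did not use, was complex for most of them but not for THRAP3 and PNN, with 4 and 6 transcripts. GENCODE 29 lists a median of 21.5 transcripts per speckle gene, against 8 for the 11430 genes matched by symbol. The speckle genes had means of 1067 to 7994 against 459 for the median gene. The matched genes were not chosen for a like level or length, so these contrasts are not particular to speckle genes. Transcripts annotated as retaining an intron numbered a median of 6 per speckle gene against 1, with 13 each for SRRM2 and NKTR, 10 for ACIN1 and 0 for THRAP3. At least 1 such transcript was listed for 9 of 10 speckle genes and 57.1% of matched genes. Transcripts annotated as targets of nonsense-mediated decay were listed for 7 of 10 and 42.6%, with the highest number, 7, in BCLAF1. Whether the number or kind of annotated transcripts goes with the changes after knockdown was not tested. The deposited values sum all transcripts of a gene, so a shift between spliced and intron-retaining forms was not analysed here. Exons on the opposite strand also overlap SON (GART, 275 bases, and DONSON, 307) and SRRM2 (ELOB, 190), each at most 2.33% of the exonic length of the speckle gene.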

How the data were processed

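Polyadenylated RNA was read as paired ends of 42 nt from 6 libraries, 2 per group. The submitters' processing notes name STAR, Picard, HTSeq and DESeq2 on hg19, and no source used here gives versions, settings or strand handling. Per the file headers, the authors deposited, for each siRNA, the mean as a signal of normalized counts, the fold change and SE as log2 values, the Wald statistic as a score, and p-values with their adjusted form. Recomputed Wald statistics, p-values and Benjamini-Hochberg values (over all 11681 rows, 2 of them HTSeq counters with 6.23% and 1.62% of the summed means) matched the authors' deposited values to within rounding. The authors' tests stand as the main tests, since the tables hold no counts. ALYREF, negative in both tables, gave the direction. Depth per library was not analysed here, and the median SE of a log2 fold change over both tables was 0.107.

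Group levels assume that the mean covers 3 groups of equal size. The dispersion implied by the siRNA5 SE predicted the siRNA8 SE with a median error of 0.814%. The difference test is normal and two-sided, adjusted over 11679 genes (Python 3.11.15, scipy 1.17.1). It was run on simulated data in which every gene had the same known dispersion. Such data cannot show how the test behaves when dispersion is estimated from 2 libraries per group. Named genes are the 10 genes, ALYREF, and the largest called rise and fall per partner list and siRNA. SAP18, NCBP2, PHAX, ZFC3H1, RBM7, U2AF2, SF3B1, overlapping genes (C14orf119, SEC22C) and the markers PAX8 and CD68 were added after their values were seen. The members, lists and motifs were chosen with earlier results of these data known; members have no set test. Gene lengths came from GENCODE 29 by symbol and promoters from RefSeq.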

Additional observations from a re-analysis of the deposited data

Results flagged for a closer look

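Of the 10 genes, 9 had log2 changes that differed between siRNA5 and siRNA8 by the test of the difference itself (normal two-sided test, Benjamini-Hochberg over all genes). By the same test 17.2% of all genes were higher with siRNA5 than with siRNA8 and 14.8% were lower, so such differences were common. The differences, siRNA5 minus siRNA8, were 0.37 for SON, 0.33 for SRRM1, 0.22 for SRRM2, 0.33 for BCLAF1, 0.27 for THRAP3, 0.50 for PNN, -0.24 for ACIN1, 0.60 for NKTR and -0.68 for ZC3H18. The fitted values of SRRM1, PNN, ACIN1, RNPS1 and ZC3H18 lay on opposite sides of NTC with the 2 siRNAs, but none of these 5 was called with both. No library has a value of its own here, so no single library could be examined.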

How the results depend on the processing

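No paired analysis was possible because the tables hold no value per library, and for the same reason no library could be left out in turn. Thresholds of 0.01 and 0.1, recentring on the median gene, leaving out genes with a mean under 100 and, added after the data were seen, rescaling to equal totals kept the number of called speckle genes within 1.5 times: 8 with siRNA5, 5 to 7 with siRNA8 and 9 for the difference between the siRNAs. Over the same settings 4246 to 6094, 3732 to 5587 and 2784 to 4393 of all 11679 genes were called. A smallest log2 change of 0.2, applied to the comparisons with NTC only, gave 8 and 4, where 4891 and 4336 of all genes passed. The difference count was 9 as well with an SE freed of the control variance, where 5615 of all genes were called. Neither Holm adjustment nor the t distribution below was applied to the difference between the siRNAs. With Holm adjustment the counts were 7 with siRNA5 and 2 with siRNA8, where 2268 and 1934 of all genes were called. Against a t distribution with 3 degrees of freedom the counts were 0 and 0, of all genes too. Even ALYREF (-4.14 and -3.67) missed the main threshold (adjusted p = 0.0716 and 0.0846), so these counts say nothing on stability. The adjusted p-values from that t distribution still differed by gene. Among the siRNA5 calls they ran from 0.0716 to 0.0777, except for SRRM1 at 0.133. Among the siRNA8 calls only THRAP3 (0.0907) and BCLAF1 (0.0918) lay under 0.1. ACIN1 was at 0.123, SRRM2 at 0.154 and NKTR at 0.158 with siRNA8. RNPS1, never called, changed sign with siRNA5 to -0.0022 when recentred and -0.013 when rescaled, and its difference between the siRNAs became -0.0072 when rescaled. PNN and ZC3H18 with siRNA8 passed at 0.1 and without low genes, and PNN also when recentred. Over genes, comparisons and settings, 194 single values kept direction and call, 18 lost the call (13 of them with that t distribution), 5 gained one and 3 changed sign. Group means of 2 libraries limit the precision of every value.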
